A study of Mus musculus with 72 samples.

Results

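G6 is an SmcHD1 knockout (KO) clone of the mouse XX embryonic stem cell (mESC) line iXist-ChrX-Cast, and its chromatin-associated RNA was compared with that of the unmodified parental line (Cast WT) over the first week of differentiation to neural precursor cells (NPCs). Of the 72 libraries of the series, 22 belonged to this comparison, 11 of G6 and 11 of Cast WT, chosen by their labels as the libraries of these lines at days 2, 3, 5 and 7. The cells carry an F1 Dom/129S x Cast genome, so RNA of the 2 alleles can be told apart by SNPs. In every library a TetOn promoter replaces the endogenous Xist promoter on the Cast allele, and doxycycline at 1 μg/mL was given from the start of differentiation in N2B27 medium, so that the day is also the time of Xist induction. The Cast X was therefore the inactive X (Xi) in both genotypes and the Dom X the active one (Xa). Cast WT had 2 replicates at day 2 and 3 at days 3, 5 and 7, and G6 had 2 on each day. At days 3, 5 and 7, replicate 1 of G6 was deposited as a pair of libraries, R1 and R2, which were counted once and left 8 G6 replicates. G6 is 1 clone, made with CRISPR-Cas9 and 2 sgRNAs, so its genotype and its clonal history cannot be told apart. Another KO clone of the same parental line, D5, with 11 libraries of the same days, is given beside some values of G6, and the difference between the clones was tested in a direct fit.

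SmcHD1 is a noncanonical SMC protein that joins the Xi late, after Xist RNA has recruited Polycomb complexes. It is known for keeping many genes of the Xi silent and for the control of a set of autosomal clusters, among them imprinted genes, protocadherins and Hox genes. ChrRNA-seq measures the RNA of the chromatin fraction, largely nascent transcripts, so that intronic reads count and the values follow transcription more closely than those of mRNA. For an X-linked gene the Cast share, Cast/(Cast + Dom) fragments, falls towards 0 as the Xi is silenced.

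The libraries held 17914084 to 31107643 fragments. Smchd1, which encodes the targeted protein, was still transcribed in G6. Its level was 522 and 543 reads per 1e6 counted fragments (RPM) in the Cast WT replicates and 460 and 560 in those of G6 at day 2, and 615 to 640 against 547 and 558 at day 7. The mean difference over the 4 days was -0.106 on the log2(RPM) scale (exact two-sided permutation of genotype within days, p = 0.0185, lower in G6 on 4 of 4 days), and it no longer passed without day 7 (-0.0823, p = 0.17 by the same permutation test). RNA from a mutated allele can persist, so this value does not check the KO. Xist, the long noncoding RNA that coats and silences the Xi, was induced in both genotypes. Cast WT had 6423 and 6574 RPM of Xist at day 2 and 26443, 30441 and 35184 at day 7, and G6 had 7323 and 9414 at day 2 and 25161 and 32716 at day 7. The Xist groups overlapped at days 3, 5 and 7, and the mean difference of 0.21 on the log2(RPM) scale was not larger than the spread between replicates (exact permutation test, p = 0.152). From 0.952 to 0.971 of the allelic Xist fragments came from the Cast allele in every replicate of both genotypes.

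Total RNA was tested with edgeR's quasi-likelihood test on fragment counts with day as a factor, and a gene was called at a Benjamini-Hochberg adjusted p below 0.05. Across days 2 to 7, 265 of 15768 genes tested (1.68%) differed between G6 and Cast WT, 167 higher and 98 lower in G6. Of the 265, 258 had the G6 mean on the same side of the Cast WT mean on all 4 days. The calls rest on the same days and replicates and favour such genes, so this count is a description. The largest rises included transcription factors and guidance or adhesion genes of the developing nervous system, and the falls included germline and pluripotency genes. The rises had a median log2 fold change of 0.59 and the falls of -0.59. The number of calls depended on which library stood for replicate 1 of G6: 934 genes passed with R1 alone, 7 with R2 alone and 153 with R1 and R2 as separate replicates. The libraries also fall into 2 naming patterns of their deposited files, each with G6 and Cast WT on every day. Deviations from the group means correlated at 0.0829 to 0.683 within a pattern. With 2 G6 replicates a day their deviations mirror each other, so the pairs are not independent. Replicate 1 of G6, with R1 and R2, has one pattern and replicate 2 the other. With the pattern as a term 676 genes passed, and within the patterns alone 33 (the one with R1 and R2) and 419. Of the 30 named genes all kept their call with the term, 2 of 30 in the former pattern and 23 of 29 in the latter. Without day 2, 3, 5 or 7 the call was kept by 23 of 30, 5 of 29, 2 of 30 and 3 of 29. What the pattern stands for is not stated in the labels. At an unadjusted p below 0.05, 1272 genes (8.07%) were higher and 1110 (7.04%) lower. Scaling by library totals in place of TMM gave 269 calls, split as 135 higher and 134 lower.

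Among the genes that fell were germline genes, which act in meiosis, in piRNA defence or in germ cell identity and are known to be transcribed at a low level in mESCs and silenced as the cells differentiate. The list was put together after the values had been seen and is given as a description. Of its 57 genes, 52 had counts enough to be tested, and of these 14 (26.9%) were lower in G6 and 0 higher, against 0.622% of all genes tested that were lower. The median log2 fold change of the 52 was -0.45, against -0.01 for all genes, and 30 of them were lower at an unadjusted p below 0.05, against 7.04% of all genes. With R2 alone 1 germline gene was called lower, and with R1 alone 26. Without 1 G6 replicate of day 5 the count was 6, for either replicate, and without replicate 2 of day 3 or replicate 1 of day 7 it was 8, and without replicate 2 of day 7 it was 9. In D5, compared with the same Cast WT libraries, the median of the germline list was 0.13. There 2 members were called higher and 1 lower, against 3.36% and 4.8% of all genes in that fit.

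The RefSeq promoters (GRCm38.p6, 250 bases before to 50 after the transcript start) of 3 of the germline genes called lower are shown as examples. In capitals are the E-box CACGTG, which MYC-type proteins such as MGA with MAX bind, and the E2F-type sequence GCGGGA, both strands searched. Hormad1, chr3:95559427-95559726 on the plus strand, held 2 E-boxes and 1 E2F-type match, Stag3, chr5:138280259-138280558 on the plus strand, held 1 of each, and Sohlh2, chr3:55181794-55182093 on the plus strand, held neither.
Hormad1: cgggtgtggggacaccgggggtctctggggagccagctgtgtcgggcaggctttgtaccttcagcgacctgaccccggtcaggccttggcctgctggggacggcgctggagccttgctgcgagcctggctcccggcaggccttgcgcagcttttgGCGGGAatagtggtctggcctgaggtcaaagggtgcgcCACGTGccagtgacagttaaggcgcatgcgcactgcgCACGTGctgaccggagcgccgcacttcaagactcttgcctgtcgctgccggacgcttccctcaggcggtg
Stag3: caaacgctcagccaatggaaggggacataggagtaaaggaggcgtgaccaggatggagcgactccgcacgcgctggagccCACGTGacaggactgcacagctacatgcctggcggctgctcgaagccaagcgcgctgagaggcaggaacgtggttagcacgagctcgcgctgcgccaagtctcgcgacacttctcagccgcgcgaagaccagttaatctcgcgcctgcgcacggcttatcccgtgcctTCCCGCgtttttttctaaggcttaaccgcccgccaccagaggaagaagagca
Sohlh2: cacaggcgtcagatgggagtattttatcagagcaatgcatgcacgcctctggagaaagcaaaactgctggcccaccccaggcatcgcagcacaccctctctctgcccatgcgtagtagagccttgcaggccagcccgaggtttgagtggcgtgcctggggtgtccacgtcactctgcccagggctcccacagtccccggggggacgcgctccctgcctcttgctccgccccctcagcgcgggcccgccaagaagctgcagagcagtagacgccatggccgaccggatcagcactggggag
Of the 52 germline genes tested, 43 matched a promoter, and 34.9% of these held the E-box and 46.5% the E2F-type sequence. Over the 11694 promoters matched to all genes tested the shares were 9.89% and 34.8%. Of the 10 germline genes called lower that had a promoter, 20.0% held the E-box and 60.0% the E2F-type sequence. The 2 that held the E-box were Hormad1 and Stag3, so the promoters shown above are not typical of the 10. Of 70 promoters of all genes called lower, 10.0% held the E-box, with a median of 10.5 CpGs per promoter against 20 over all genes tested.

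Hormad1 (chr3:95559676-95587860, plus strand, mm10) encodes a HORMA domain protein of the meiotic chromosome axis. In Cast WT it stood at 17.2 and 16.6 RPM at day 2, 8.56, 8.51 and 6.23 at day 3, 2.47, 3.25 and 3.80 at day 5, and 1.88, 1.89 and 2.12 at day 7. In G6 it stood at 6.99 and 8.26, 3.90 and 2.79, 1.32 and 1.03, and 0.802 and 0.323 on these days. It fell in both genotypes as the cells differentiated, and every G6 replicate lay below every Cast WT replicate of the same day. The log2 fold change of Hormad1 was -1.31 ± 0.15 (SE; edgeR adjusted p = 0.000306), and it was called in each of 19 fits that left out 1 replicate. Against D5 the difference was -1.08 ± 0.19 (edgeR adjusted p = 0.0011).

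Sohlh2, a basic helix-loop-helix transcription factor of early germ cells, had 14.8 and 23.5 RPM in Cast WT and 7.70 and 12.95 in G6 at day 2. At day 7 Cast WT had 1.35, 2.04 and 2.51 RPM and G6 0.942 and 0.887. The groups did not overlap on any day. Its log2 fold change was -0.99 ± 0.15 (edgeR adjusted p = 0.00417), whereas in D5 against the same Cast WT libraries it was 0.72 (edgeR adjusted p = 0.0024), and G6 was lower than D5 by -1.70 ± 0.15 on the log2 scale. Morc1, a repressor of transposons in the male germline, was far more abundant. It had 459 and 386 RPM in Cast WT and 237 and 218 in G6 at day 2, and 44.8 to 55.5 against 27.8 and 25.3 at day 7 (log2 fold change -0.94 ± 0.12, edgeR adjusted p = 0.00169). Stag3, the cohesin subunit of meiosis, fell less, by -0.44 ± 0.09 on the log2 scale, and in D5 its change was -0.40, so that G6 against D5 came to -0.04 ± 0.09.

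The remaining germline genes called lower had log2 fold changes from -0.39 to -0.88. They included Nlrp4f, an oocyte NLR gene with near copies in the genome whose count is therefore less certain (-0.88), the piRNA factor Gtsf1 (-0.86), the X-linked meiotic gene Tex11 (-0.64), the Tudor domain gene Rnf17 (-0.59) and Tcfl5 (-0.39). Dazl, the RNA-binding protein of germ cells, did not pass in G6 (-0.51 ± 0.16, edgeR adjusted p = 0.118), and against D5 it was lower by -1.15 ± 0.17. Ddx4 (-0.46) and Sycp3 (-0.29) did not pass either.

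**Figure D1:**
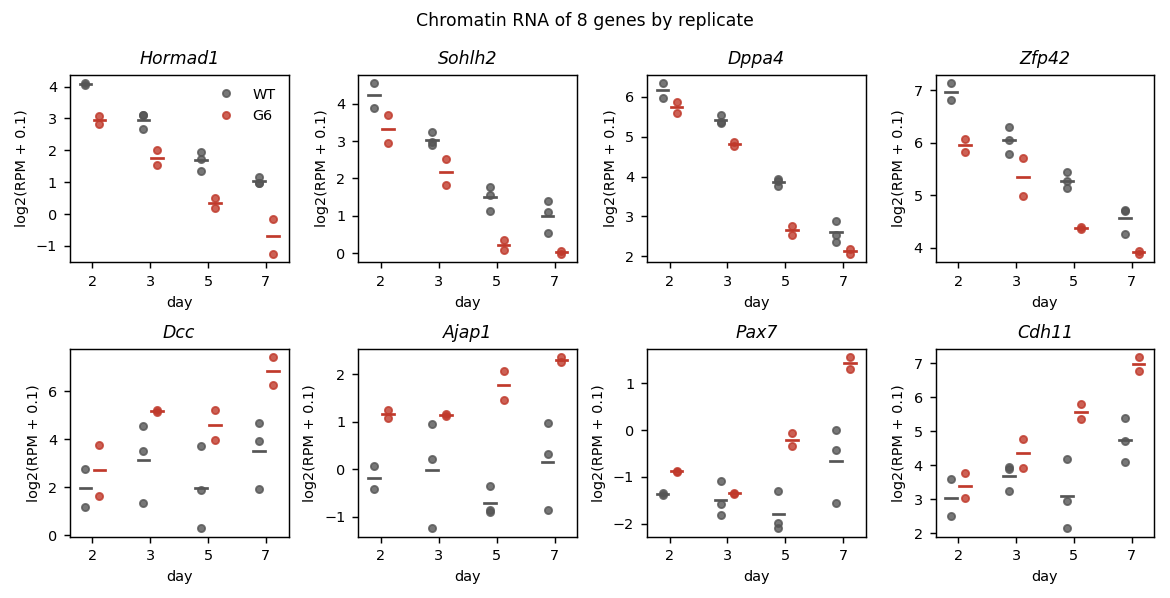
Level of 8 genes in each replicate of Cast WT (grey) and G6 (red) by day, as log2(RPM + 0.1), with a short line at the mean of each group. Hormad1, Sohlh2, Dppa4 and Zfp42 fall with time and lie lower in G6, and Dcc, Ajap1, Pax7 and Cdh11 have higher means in G6 on each of the 4 days.

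Of 10 core pluripotency genes tested 3 fell, Dppa4, Dppa2 and Fbxo15, and 0 rose, against 0.622% of all genes tested that were lower. The median of the list was -0.36. Dppa4 and Dppa2 lie close together on chromosome 16, near Morc1 of the germline list. The window there from 40 to 50 Mb held 3 genes called lower and 0 higher of 42 tested. The counts of the 2 lists are therefore not independent of each other. Dppa4, a chromatin-bound factor of pluripotent cells that acts with Dppa2, had 63.1 and 81.2 RPM in Cast WT and 48.2 and 58.7 in G6 at day 2, and 5.06, 5.70 and 7.33 against 4.09 and 4.48 at day 7. Its groups were separate on each day (log2 fold change -0.65 ± 0.10, edgeR adjusted p = 0.00417). Dppa2 fell by 0.76 ± 0.17 and Fbxo15, an F-box gene of mESCs, by 0.58 ± 0.12, both on the log2 scale. Of the 10 genes 2 had a positive value, and 5 were lower at an unadjusted p below 0.05, against 7.04% of all genes. Pou5f1, Sox2, Sall4 and Lin28a were not among the called genes. With R2 alone none of the 3 passed.

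Of 15 naive pluripotency genes 1 (6.67%) fell, Zfp42 (Rex1), against 0.622% of all genes. Of the 15, 9 were lower at an unadjusted p below 0.05, against 7.04% of all genes, and 1 of the 15 had a positive value. Zfp42 had 141 and 112 RPM in Cast WT and 56.8 and 67.3 in G6 at day 2, and 19.14, 26.1 and 26.4 against 15.3 and 14.7 at day 7 (log2 fold change -0.77 ± 0.11, edgeR adjusted p = 0.00275). Nanog (-0.39, adjusted p = 0.153) and Esrrb (-0.43, adjusted p = 0.211) did not pass in the edgeR test. Against D5, where the list median against Cast WT was 0.34, 11 of the 15 naive genes were lower in G6 by the same test and 0 higher, against 8.86% of all genes that were lower in that fit. Nanog in G6 was lower than in D5 by -1.02 ± 0.14 and Esrrb by -0.77 ± 0.18. Of 14 formative and primed genes 1 (7.14%) fell, Dnmt3l, the cofactor of de novo DNA methylation (-0.68 ± 0.15), and the median of that list was -0.04. No member of 4 tested 2-cell-like genes passed (median -0.45).

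The 15 largest rises were led by Dcc, the netrin receptor that steers axons. It varied widely within groups. In Cast WT it had 6.65 and 2.16 RPM at day 2, 23.5, 2.42 and 11.2 at day 3, 3.61, 1.13 and 13.1 at day 5, and 3.71, 15.0 and 25.5 at day 7. In G6 it had 13.6 and 3.01, 34.9 and 37.1, 15.4 and 36.8, and 76.3 and 171 on these days. At days 3, 5 and 7 each G6 replicate lay above each Cast WT replicate, and at day 2 the groups overlapped. The log2 fold change was 2.07 ± 0.50 (edgeR adjusted p = 0.0405), and the call for Dcc was kept in 4 of the 19 fits that left out 1 replicate.

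Ajap1 (chr4:153373220-153482830, minus strand, mm10), an adherens junction-associated transmembrane protein, was also among the 15. In Cast WT it stood between 0.325 and 1.86 RPM in all 11 replicates. In G6 it stood at 2.02 and 2.29 RPM at day 2, 2.14 and 2.08 at day 3, 4.08 and 2.67 at day 5, and 5.03 and 4.72 at day 7, so every G6 replicate lay above every Cast WT replicate. The log2 fold change of Ajap1 was 1.85 ± 0.29 (edgeR adjusted p = 0.0049), and it was called in all 19 such fits. D5 did not differ from Cast WT (0.01, adjusted p = 0.98 by edgeR), and G6 exceeded D5 by 1.81 ± 0.26.

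Cell adhesion and matrix genes were among the same 15. Cdh11, a cadherin of mesenchyme and developing brain, had 5.60 and 12.0 RPM in Cast WT and 8.21 and 13.5 in G6 at day 2, and 16.98, 26.4 and 41.4 against 109 and 144 at day 7. The groups overlapped at days 2 and 3 and were separate at days 5 and 7 (log2 fold change 1.50 ± 0.32, edgeR adjusted p = 0.0235). Col13a1, a transmembrane collagen, had 1.02 to 3.81 RPM in Cast WT and 2.77 to 12.5 in G6 (1.43 ± 0.27), and it was called in all 19 fits.

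Transcription factors of neural patterning rose as well, from low levels. Pax2, which marks the midbrain-hindbrain boundary, had at most 1.89 RPM in Cast WT and reached 5.29 and 3.59 in G6 at day 7 (log2 fold change 1.84 ± 0.38). Pax7, of the dorsal neural tube and crest, had 0.241, 0.643 and 0.906 RPM in Cast WT and 2.34 and 2.82 in G6 at day 7 (1.43 ± 0.28), while at days 2 and 3 its values were 0.186 to 0.370 in Cast WT and 0.291 to 0.447 in G6. Nr2f1, a nuclear receptor of cortical patterning, had 0 to 0.679 RPM in Cast WT and 1.29 and 2.38 at day 7 in G6 (1.47 ± 0.35), and its call was kept in 7 of 19 such fits. Pax2 was called in 17 and Pax7 in 18 of the 19.

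Other rises among the 15 were receptors, channels and signals of neurons. Ntrk3, the receptor of neurotrophin-3, declined in Cast WT to 2.57, 3.09 and 5.24 RPM at day 7 and stood at 14.6 in both G6 replicates (log2 fold change 1.40 ± 0.26). Robo3, a receptor for midline crossing of axons, rose by 1.29 ± 0.30 and kept its call in 7 of 19 fits, and the potassium channel gene Kcnd3 rose by 1.36 ± 0.26. Nrg3, a neuregulin, had 9.59 and 20.2 RPM in Cast WT and 26.4 and 45.5 in G6 at day 2 and declined in both (1.36 ± 0.23). For Nrg3 the change in D5 was 1.08 (edgeR adjusted p = 0.0062), and G6 and D5 differed by 0.28 ± 0.19 (adjusted p = 0.31). Prdm6, a PR domain factor, rose by 1.38 ± 0.31 in G6 and fell by 1.97 in D5 against the same Cast WT libraries (edgeR adjusted p = 0.0017).

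Peg12, a paternally expressed gene of the imprinted Snrpn cluster, was the imprinted gene with a call. It had 1.40, 1.77 and 2.41 RPM in Cast WT and 4.07 and 5.00 in G6 at day 7, and 0.360 and 0.378 against 0.264 and 0.837 at day 2. Its groups overlapped at day 2 and were separate at days 3, 5 and 7 (log2 fold change 1.40 ± 0.26, edgeR adjusted p = 0.0157). The change was 1.49 in D5 (edgeR adjusted p = 0.0019), which shares the Cast WT libraries. Of the cluster's 6 genes, a set named after the values were seen, Peg12 passed, and Ndn had 0.64 ± 0.23 (adjusted p = 0.161 by edgeR). Of the 47 genes of the fixed imprinted list, which does not hold Peg12, 0 passed in the edgeR test, and the median was 0.07. At an unadjusted p below 0.05, 7 were higher and 4 lower, against 8.07% and 7.04% of all genes. The other 2 of the 15 rises were the cytochrome gene Cyp4f15 (1.33 ± 0.27) and Speer5-ps1, a pseudogene of a multicopy family whose reads may be shared between copies (1.67 ± 0.28).

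Among the 15 largest falls outside the germline list, 4930532M18Rik had 59 fragments over all Cast WT libraries, 0 to 14 in each, and 0 in G6 and in D5. With a floor of 3 fragments over the G6 group it was at least 18.9-fold lower. Ccdc172, a coiled-coil gene, had 4.53 and 4.48 RPM in Cast WT and 2.68 and 1.45 in G6 at day 2, and 0.482 to 0.943 against 0.200 and 0.202 at day 7 (log2 fold change -1.56 ± 0.26, edgeR adjusted p = 0.00825). In D5 the change of Ccdc172 was 0.92 (adjusted p = 0.11 by edgeR), and G6 was lower than D5 by -2.50 ± 0.41. Aire, the autoimmune regulator, which is also transcribed in mESCs, had 14.2 and 16.2 RPM in Cast WT and 7.04 and 8.99 in G6 at day 2 (-1.11 ± 0.22). Slc1a1, a glutamate transporter gene, had 1.82 to 5.10 RPM in Cast WT and 0.916 to 2.63 in G6 over the 4 days (-1.004 ± 0.21).

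Of the other named falls, Clca2 fell by 1.32 ± 0.26, Gm1322 by 1.25 ± 0.22, Clec4a4 by 1.03 ± 0.19 and 4933406J08Rik by 0.94 ± 0.17, and all of these were called in every fit that left out 1 replicate. Calcoco2, an autophagy receptor gene (-1.11), Mir1970 (-1.07), Nwd2 (-1.04), Cngb1, a cyclic nucleotide-gated channel subunit (-0.97), and Tmprss11d, a membrane serine protease gene (-0.95), were each called in 3 to 9 of these 19 fits. Mir1970 is a microRNA gene whose entry in the count files spans chr7:107284774-107580276 (mm10), so its fragments need not come from the hairpin.

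Neural and other lineage genes were read by lists. Of 13 neural precursor genes tested 1 (7.69%) rose, against 1.06% of all genes, which was Zbtb16 (Plzf), a zinc finger factor of neural rosettes, and the list median was 0.43. Zbtb16 had 17.4, 20.5 and 24.3 RPM in Cast WT and 42.96 and 45.5 in G6 at day 7 (log2 fold change 0.91 ± 0.22, edgeR adjusted p = 0.045), and 2.59 and 4.44 against 4.08 and 6.07 at day 2. Fabp7 (1.36, adjusted p = 0.092) and Pax6 (0.53, adjusted p = 0.262) did not pass in edgeR. No member of the 8 neuronal genes (median 0.24), of the 13 mesoderm and endoderm genes (median 0.55, all 13 positive) or of the 7 Hox genes tested of 41 (median 1.19) passed. Of the 7 Hox genes 4 were higher at an unadjusted p below 0.05, against 8.07% of all genes. Low counts were filtered by genotype and day, so a gene could be tested for its G6 values alone. Hoxb3 had at most 0.304 RPM in Cast WT and 2.18 and 0.565 in G6 at day 7. The Hox median is therefore a description. Of 59 clustered protocadherins 1 was tested (0.41), and it did not pass. Gata4, of endoderm and heart, had 0.83 ± 0.32 in G6 and -1.96 in D5 (edgeR adjusted p = 0.0092), and G6 exceeded D5 by 2.81 ± 0.41. The mesoderm and endoderm list had a median of -0.85 in D5 against the same Cast WT libraries.

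A list of 55 axon guidance genes and one of dorsal neural tube and crest genes were made after the values were seen. Of the 55, all tested, 7 (12.7%) were higher in G6 and 0 lower, against 1.06% of all genes tested that were higher, and the median was 0.40. Beside Dcc, Ntrk3 and Robo3 these were Epha6 (0.77), Slit1 (0.70), Efna5 (0.67) and Unc5d (0.48). Efna5, an ephrin ligand, was the most abundant of them, with 973, 1440 and 2337 RPM in Cast WT and 2447 and 2494 in G6 at day 7. In D5 against the same Cast WT libraries 2 of the 55 were called higher, Epha6 and Unc5d (1.24 and 0.63 on the log2 scale), and 4 lower. The median in D5 was -0.03, and over all genes of that fit 3.36% were called higher and 4.8% lower. Of 27 dorsal neural tube and crest genes tested of 34, 5 (18.5%) were higher, Pax2, Pax3, Pax7, Tfap2b and Bmp5, and 0 lower, with a median of 0.33, and in D5 2 were called higher and 0 lower, with a median of 0.12. Pax3 had 5.54, 9.26 and 10.6 RPM in Cast WT and 36.4 and 39.2 in G6 at day 7, with 0.552 to 1.13 against 0.333 to 1.36 at days 2 and 3. With R2 alone no member of either list passed.

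**Figure D2:**
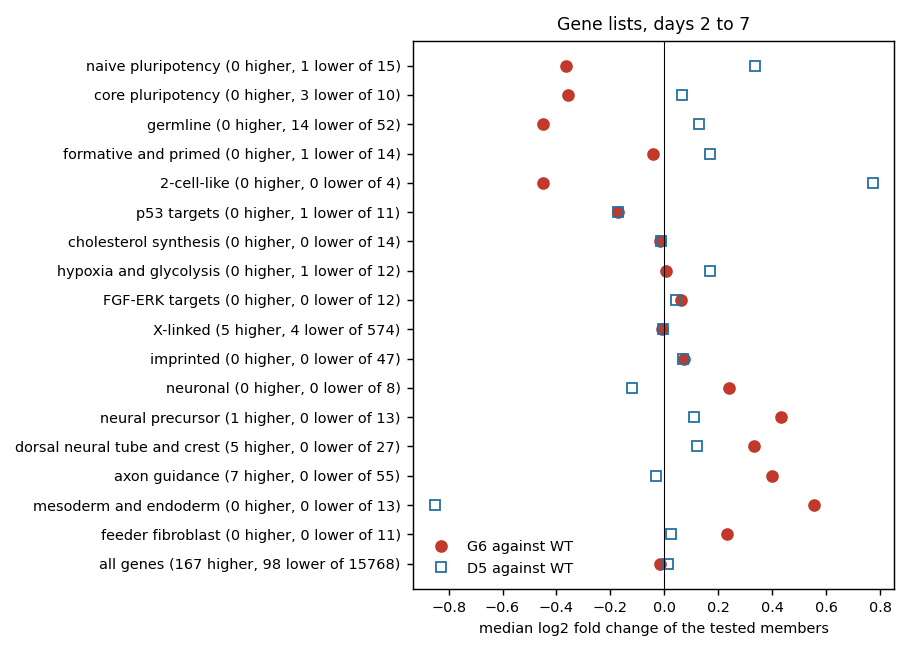
Median log2 fold change of the tested members of each gene list, over days 2 to 7, for G6 (red circles) and D5 (open blue squares) against the same Cast WT libraries, with the number of members called in G6 in brackets. The naive pluripotency, core pluripotency and germline medians are -0.37, -0.36 and -0.45 in G6 and 0.34, 0.07 and 0.13 in D5, and all genes lie at -0.01 and 0.01.

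Markers of other cells in the culture were measured beside these lists. Of 12 feeder fibroblast genes 11 were tested, 0 passed in edgeR and 0 had an unadjusted p below 0.05, with a median of 0.23. Postn, a member of this list, was 0 to 0.0944 RPM in Cast WT and 0 to 0.279 in G6 at days 2 and 3. At day 7 it was higher in both, 3.28, 13.1 and 16.7 against 13.6 and 24.2. Lists of FGF-ERK targets (12 genes), cholesterol synthesis (14) and replication-dependent histones (58) had 0 calls in edgeR, with 1, 0 and 1 of their genes at an unadjusted p below 0.05. Of 12 hypoxia and glycolysis genes 1 (8.33%) fell, Pdk1 (-0.38 ± 0.09), and of 11 p53 targets 1 (9.09%), Trp53inp1 (-0.30 ± 0.07). Of all genes 0.622% were called lower. The list medians were 0.0047 and -0.17. Of the p53 targets 1 had a positive value and 3 were lower at an unadjusted p below 0.05, against 7.04% of all genes. In D5 against the same Cast WT libraries the p53 median was -0.17, with 2 called lower, against 4.8% of all genes. In bulk samples, fewer cells of a type and less RNA per cell cannot be told apart.

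The replicates also differed along the axis that separated the days. The first principal component of the 500 most variable autosomal genes held 78.3% of their variance and rose with time, from -39.7 at day 2 to 36.2 at day 7 in the mean of Cast WT. The G6 mean was higher on each day, -38.4 against -39.7 at day 2, -22.1 against -26.6 at day 3, 23.8 against 13.2 at day 5 and 42.1 against 36.2 at day 7. The mean difference was 5.55 (exact permutation within days, p = 0.001). With the score as a term of the edgeR fit 329 genes were called, 82 of them among the 265, and 11 of the 30 named genes kept their call. With the score in the fit, 6 germline genes were called lower, and 8 axon guidance genes and 0 dorsal neural tube and crest genes higher. Which part of each gene's difference goes with the score was not tested.

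**Figure D3:**
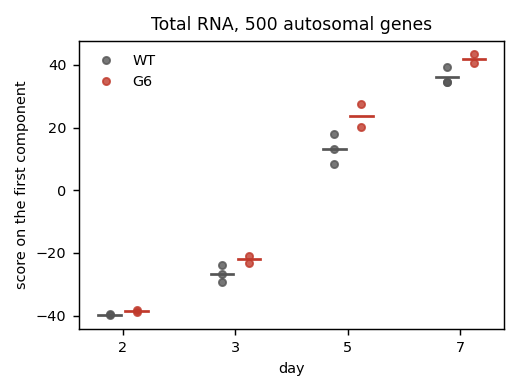
Score of each replicate on the first principal component of total RNA (500 autosomal genes) by day, Cast WT in grey and G6 in red, with a short line at each group's mean. The score rises with time in both, and the G6 mean lies above the Cast WT mean on each of the 4 days.

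The comparison was also made within the early and the late period of the time course. At days 2 and 3, 0 of 15041 genes passed in edgeR, with 882 (5.86%) at an unadjusted p below 0.05, 46 called by DESeq2 and 46 with the naming pattern as a term. At days 5 and 7, 56 of 15315 genes (0.366%) passed, 42 higher and 14 lower, and the number was 478 with DESeq2, 242 with the naming pattern as a term and 2 with R1 and R2 as separate replicates. Hormad1 (-1.52), Ajap1 (2.39), Cdh11 (2.24), Pax7 (2.08), Col13a1 (2.05) and Kcnd3 (1.79) were among the 56. The change of the difference between the periods was tested itself, and 0 of 15768 genes passed in edgeR, with 305 (1.93%) at an unadjusted p below 0.05 and 2 in DESeq2. A gene called in one period and not in the other is therefore not shown to differ between them.

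The direct comparison of the clones gave more calls than either clone against Cast WT. Of 15910 genes 3141 (19.7%) differed between G6 and D5 in edgeR, 1732 higher (10.9%) and 1409 lower (8.86%) in G6. D5 against the same Cast WT libraries gave 1294 of 15862 (8.16%), 533 higher (3.36%) and 761 lower (4.8%). Of the 167 genes higher in G6 than in Cast WT, 17 were called higher and 14 lower in D5 against Cast WT, and 117 were called between the clones. Of the 98 lower genes, 7 were called lower and 2 higher in D5, and 61 were called between the clones. The median change in D5 was 0.01 for the former and -0.11 for the latter. The genes in these counts were chosen for their G6 values, which also enter the fit between the clones, so the counts are a description. Because both contrasts use the same Cast WT libraries, only the fit of G6 against D5 tests the difference.

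Of 574 X-linked genes tested in total RNA, of 908, 9 (1.57%) were called, against 1.68% of all genes, 5 higher and 4 lower, with a median of -0.01. The higher ones included Col4a6, a basement membrane collagen (0.65), the ectodysplasin gene Eda (0.43), Nhs (0.43) and the chloride channel gene Clcn5 (0.37), and the lower ones the germline gene Tex11, Xk (-0.48) and Mid1 (-0.61 ± 0.12, edgeR adjusted p = 0.0211). Mid1, a microtubule-associated ubiquitin ligase gene, is known to escape silencing, and had 439 and 535 RPM in Cast WT and 222 and 286 in G6 at day 2, with separate groups on each day. Of 28 Xist pathway genes tested 0 passed in edgeR. At an unadjusted p below 0.05, 4 of them were higher and 2 lower, against 8.07% and 7.04% of all genes. Jpx, a noncoding activator of Xist, had 0.33 ± 0.10 (adjusted p = 0.11 by edgeR) and Tsix, the antisense gene of Xist, -0.67 ± 0.27 (adjusted p = 0.233).

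Silencing of the Cast X was measured by the Cast share of the 399 genes of the deposited ratio table, each tested with limma on the share with day as a factor. The median share over these genes fell from 0.143 and 0.168 in the Cast WT replicates of day 2 to 0.0118, 0.0152 and 0.0243 at day 7. In G6 it fell from 0.102 and 0.142 to 0.0224 and 0.0257. At day 3 Cast WT had 0.0750, 0.0962 and 0.0744 against 0.0842 and 0.0610 in G6, and at day 5 0.0193, 0.0270 and 0.0385 against 0.0263 and 0.0283. The groups overlapped at days 3, 5 and 7, and at day 2 both G6 replicates lay just below those of Cast WT.

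The mean difference of the median share was -0.0092 over the 4 days (exact permutation within days, p = 0.27), -0.0214 at days 2 and 3 (p = 0.183, the smallest p that these arrangements allow being 0.0167, by exact permutation) and 0.0030 at days 5 and 7 (p = 0.53). Its change from the early to the late period was 0.0244 (exact permutation, p = 0.0943). R1 and R2 of replicate 1 of G6 lay far apart, 0.0476 and 0.117 at day 3, 0.0152 and 0.0372 at day 5, and 0.0125 and 0.0289 at day 7. With R1 alone the 4-day difference was -0.0164 (exact permutation, p = 0.0267). For the share of the summed counts of all 399 genes, which abundant genes dominate and Xist most of all, the difference was 0.0122 (exact permutation, p = 0.53).

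**Figure D4:**
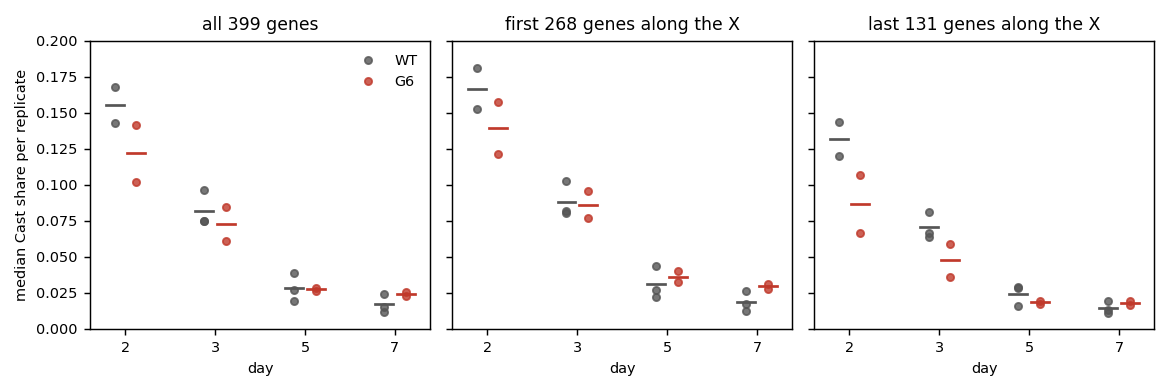
Median Cast share of each replicate by day, Cast WT in grey and G6 in red, with a short line at each group's mean, over all 399 genes, the first 268 genes along the X and the last 131. Shares fall with time in both genotypes, and in the last 131 genes both G6 replicates lie below all Cast WT replicates at days 2 and 3.

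By gene, 0 of 399 shares passed in limma over days 2 to 7, with 51 lower and 12 higher at an unadjusted p below 0.05, and 9 by edgeR on the allelic counts. The median difference was -0.0056. The 10 genes with the smallest p, none of which passed, had adjusted p from 0.0887. Trappc2 (chrX:166440824-166452543, mm10), a subunit of the TRAPP vesicle tethering complex, had shares of 0.278 and 0.268 in Cast WT and 0.130 and 0.147 in G6 at day 2, and 0.132, 0.217 and 0.185 against 0.0882 and 0.0426 at day 3. Its groups were separate on both days, from 34 allelic fragments or more in each replicate. The difference over the 4 days was -0.0808 ± 0.018 (limma adjusted p = 0.0887).

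Of the 10, 9 were lower in G6 than in Cast WT. Scml2, a Polycomb-related gene, differed by -0.0642, Ap1s2, a clathrin adaptor subunit gene, by -0.0687, Klhl13 by -0.0567, Gemin8, of the SMN complex, by -0.0462, Dkc1, the telomerase cofactor dyskerin, by -0.0439, and Kdm5c by -0.0423. A830080D01Rik differed by -0.0398 and the kinase gene Wnk3 by -0.0303. Before induction Ap1s2 had a Cast share of 0.755 in the G6 mESC library, so its starting level was not near equality. Ppp1r3f, a regulatory subunit of protein phosphatase 1, was the exception, with 0.0608 ± 0.0161 (limma adjusted p = 0.112). Its shares were 0.160, 0.102 and 0.0896 in Cast WT and 0.217 and 0.255 in G6 at day 3, and it rested on 39 allelic fragments or more in each replicate.

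The lower shares of days 2 and 3 were unevenly placed along the chromosome. At these days 0 of 399 genes passed in limma, with 59 lower (14.8%) and 3 higher (0.752%) at an unadjusted p below 0.05, and 3 by edgeR on allelic counts. Of the 131 genes from 120 Mb to the end of the X (a boundary drawn after the values were seen), 124 had a lower share in G6, 50 at an unadjusted p below 0.05, with a median difference of -0.0369. Of the 268 genes before it 205 were lower, 9 at an unadjusted p below 0.05, with a median of -0.0109. The median of the 131 genes was 0.120 and 0.143 in Cast WT and 0.0662 and 0.107 in G6 at day 2, and 0.0637, 0.0809 and 0.0663 against 0.0591 and 0.0360 at day 3. In the R1 and R2 libraries behind the former of these day 3 values it was 0.0292 and 0.0914, so the R2 library lay above all 3 Cast WT replicates.

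The same stretch had a lower Cast share in G6 before Xist was induced. In the mESC library of G6 the median share in windows of 20 Mb starting at 120, 140 and 160 Mb was 0.370, 0.333 and 0.362, against 0.456 and 0.443, 0.414 and 0.426, and 0.453 and 0.455 in a pair of D5 mESC libraries. In the windows before 120 Mb it was 0.393 to 0.470 in G6 and 0.420 to 0.463 in D5. An uninduced Cast WT library was not analysed here, and G6 had 1 such library, so no test was made, and the part of this starting level in the differences of days 2 and 3 was not tested.

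**Figure D5:**
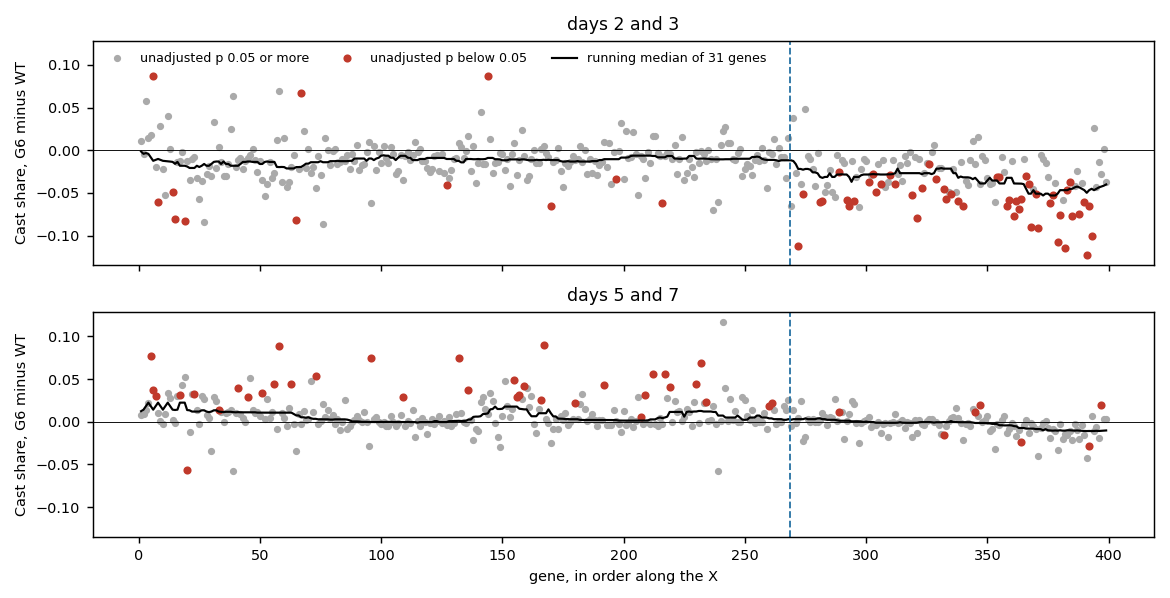
Difference of the Cast share, G6 minus Cast WT, of each of the 399 genes in their order along the X, at days 2 and 3 (top) and days 5 and 7 (bottom). Red points have an unadjusted p below 0.05, the black line is a running median of 31 genes, and the dashed line separates the first 268 genes from the last 131, in which 124 lie below 0 at days 2 and 3.

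At days 5 and 7 the balance of signs was the other way. Again 0 of 399 genes passed in limma, with 39 higher and 4 lower at an unadjusted p below 0.05, and 12 by edgeR on allelic counts. The median difference was 0.0020. Of the 268 genes before 120 Mb 183 were higher, 35 at an unadjusted p below 0.05, and of the 131 after it 49 were higher and 4 at that p. Vma21 (chrX:71816079-71824706, mm10), a vacuolar ATPase assembly factor, had shares of 0.0145, 0.0816 and 0.0625 in Cast WT and 0.122 and 0.139 in G6 at day 5, and 0.0270, 0.0294 and 0.0331 against 0.0770 and 0.128 at day 7. The groups were separate on both days, by 0.075 ± 0.0147 in the fit (limma adjusted p = 0.0956), and in D5 the difference was 0.0844 (limma adjusted p = 0.0125) against the same Cast WT libraries. Timp1, a metalloproteinase inhibitor, was at 0 in all 9 Cast WT replicates of days 3, 5 and 7 and at 0.0185 to 0.222 in the G6 replicates of these days, but from as few as 13 allelic fragments.

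A fixed set of slowly silenced and escaping genes was read at the same days. At days 5 and 7 the differences were 0.0565 for Igbp1, 0.0563 for Yipf6, 0.0684 for Pin4, 0.0394 for Ddx3x, 0.0507 for Kdm6a, 0.0222 for Prkx and -0.0218 for the demethylase gene Kdm5c, and none passed in limma. With the naming pattern as a term 3 of all 399 genes passed, Ikbkg, Zfx and Igbp1. Prkx, a protein kinase gene, had 0.0151, 0.0241 and 0.0177 in Cast WT and 0.0379 and 0.0460 in G6 at day 5, and 0.0120, 0.0236 and 0.0204 against 0.0359 and 0.0441 at day 7. Its groups were separate on both days (0.0222 ± 0.00504, limma adjusted p = 0.134). Kdm6a, the H3K27 demethylase gene that escapes silencing in part, had 0.145, 0.178 and 0.162 in Cast WT and 0.254 and 0.245 in G6 at day 7, while at day 5 the groups overlapped. Eif2s3x, a translation factor subunit gene that escapes, differed by -0.0035, and Taf1, a TFIID subunit gene, by 0.0226, with groups that overlapped at day 7 for both.

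The change of the share difference between the periods was tested for each gene. None of 399 passed in limma, 66 had a positive and 2 a negative change at an unadjusted p below 0.05, and 0 passed by edgeR on allelic counts. The median change was 0.0235. At day 7, 20 of 399 genes kept a mean share above 0.1 in Cast WT and 39 in G6, 17 of them in both. By replicate there were 21, 21 and 31 such genes in Cast WT and 33 and 56 in G6, and the R1 and R2 libraries of the former G6 replicate had 22 and 45.

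X genes were also read by classes that the study took from mouse embryonic fibroblasts (MEFs) with and without SmcHD1. In the 56 SmcHD1-dependent genes the median share difference was -0.0297 at days 2 and 3 and 0.0123 at days 5 and 7. It was -0.0197 and 0.0023 in the 143 partially dependent genes, -0.0113 and -0.000039 in the 101 not dependent genes, and -0.0122 and 0.0024 in the 18 MEF escapees. Over all 399 genes it was -0.0148 and 0.0020. At days 5 and 7, 10 dependent, 18 partially dependent, 4 not dependent and 2 escapee genes were higher at an unadjusted p below 0.05, against 9.77% of all genes, and 0 passed the limma threshold in any class. The mean share at day 7 had a class median of 0.0418 in Cast WT and 0.0484 in G6 for the dependent genes, and of 0.00895 and 0.0114 for those not dependent.

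Between the clones 6 of 399 shares (1.50%) differed in limma, and all 6 were lower in G6. They were Klhl13 (-0.097 ± 0.0168), Rab9, a late endosome GTPase gene (-0.065 ± 0.0152), Gemin8 (-0.0522 ± 0.0102), Ofd1, a centriole gene (-0.0416 ± 0.00964), Wnk3 (-0.0297 ± 0.00654) and the peroxiredoxin gene Prdx4 (-0.0271 ± 0.00591), and 5 of them lie after 120 Mb. Leaving out 1 replicate gave 0 to 10 such genes. D5 against Cast WT gave 28 genes at days 5 and 7 (7.02%), 27 of them higher, where G6 gave 0. The difference between the clones was tested over days 2 to 7, not within this period.

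Large gains or losses of autosomal segments in G6 were looked for with the Cast share of autosomes. In 253 windows of 10 Mb no share differed by more than 0.05 between the genotype means, and the largest difference was -0.0342, on chromosome 14. In 4 windows the replicates of the genotypes did not overlap, 3 of them on chromosome 14. Over all of chromosome 14 the share was 0.497 in Cast WT and 0.474 in G6, the median log2 fold change 0.07, and of 547 genes tested 16 (2.93%) were called higher, Nrg3 among them, and 1 lower, against 1.06% of all genes that were higher. On chromosome 8, in the 5 windows from 80 to 130 Mb, the share was lower in G6 by 0.0118 to 0.0215 and the median log2 fold change of a window was -0.14 to -0.11, and the replicates of the genotypes overlapped in each. Both genotypes had a Cast share of 0.639 to 0.663 on chromosomes 5 and 12, against 0.460 to 0.497 on the other autosomes. Along chromosome 12 the share was uneven. The genotype means were 0.464 to 0.525 in the windows from 0 to 70 Mb and 0.717 to 0.754 in those from 80 Mb on.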

How the data were processed

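ChrRNA-seq libraries of G6, D5 and Cast WT were taken as deposited. The authors removed rRNA reads with Bowtie2 2.3.2, aligned the other read pairs with STAR 2.4.2a against mm10 masked at SNPs, sorted them by allele (SNPsplit) and ran featureCounts with strand over whole transcripts. The deposited count files give whole-number counts, all and per allele, of 22556 genes. The deposited ratio table gives the allelic ratio Xi/(Xi+Xa) as a fraction for 399 genes, and its 13566 values compared differed from the ratios of the counts by at most 5.0e-16. Of its per-sample columns, 12 matched no library here and were not used. Groups came from the labels. Counts of R1 and R2 of one replicate were summed and their shares averaged.

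Total RNA was tested with edgeR 4.0.16 (R 4.3.3): low counts filtered by genotype and day, TMM, quasi-likelihood, day as a factor, Benjamini-Hochberg adjustment, threshold 0.05. Shares were tested with limma 3.58.1 with a trended prior. Single values were tested by exact two-sided permutation of genotype within days. There were 6000 arrangements over the 4 days, 60 at days 2 and 3 and 100 at days 5 and 7. The number was another where replicates or days were left out or R1 and R2 were counted apart. Both fits were tested on simulated data. DESeq2 1.42.0, edgeR on allelic counts, other scalings, replicates or days left out and further settings served as alternatives. Named genes were the 15 largest rises and 15 largest falls among genes with an adjusted p below 0.05 and the same direction on all 4 days, the 10 shares with the smallest p, up to 4 members per list, and a fixed set of X genes. Other genes, among them those of the lists made after the values were seen, were chosen after their values were seen. The members and lists were chosen with earlier results of these data known. The labels do not say that replicates came from separate differentiations. The study does describe replicate time courses, 3 at days 3, 5 and 7, which G6 reaches only with R1 and R2 counted apart. Counting R1 and R2 once may therefore join separate experiments. The p-values measure the spread between these samples. The median number of allelic fragments per gene was 212 to 569 per replicate, and 25 of 399 genes had under 10 in some replicate.

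Promoters were matched by symbol to RefSeq sequences (GRCm38.p6).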

Additional observations from a re-analysis of the deposited data

Results flagged for a closer look

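In the direct fit of G6 against D5, 24 of the 30 named genes differed between the clones, against 19.7% of all genes. The 30 were chosen as the largest differences of G6 from Cast WT, and the same G6 values enter this fit, so the count is a description. On the log2 scale G6 exceeded D5 by 1.52 for Dcc, 1.81 for Ajap1, 1.51 for Pax2, 1.78 for Speer5-ps1, 1.48 for Cdh11, 1.30 for Nr2f1, 1.76 for Pax7, 1.87 for Col13a1, 0.72 for Ntrk3, 3.30 for Prdm6, 1.03 for Kcnd3, 0.77 for Cyp4f15 and 0.93 for Robo3. The values of G6 minus D5 were -2.50 for Ccdc172, -0.78 for Clca2, -1.08 for Hormad1, -0.9995 for Calcoco2, -1.28 for Aire, -0.80 for Mir1970, -0.75 for Clec4a4, -0.99 for Slc1a1, -1.70 for Sohlh2, -0.67 for Cngb1 and -1.11 for 4933406J08Rik. Each of these passed in edgeR over all genes of that fit. For Peg12, Nrg3, Nwd2, Gm1322 and Tmprss11d the difference between the clones did not pass, and 4930532M18Rik, with no fragment in either clone, was not tested between them.

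Over all genes 3141 differed between the clones in total RNA, and 6 of 399 X genes differed in their Cast share by limma. The shares of G6 minus D5 were -0.097 for Klhl13, -0.065 for Rab9, -0.0522 for Gemin8, -0.0416 for Ofd1, -0.0297 for Wnk3 and -0.0271 for Prdx4. Each clone is 1 line, so a difference between clones and a difference between cultures cannot be told apart.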

How the results depend on the processing

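Of the values in total RNA, 265 calls became 153 with R1 and R2 as separate replicates, 934 with R1 alone, 7 with R2 alone, 638 with DESeq2, 1083 with the replicate number as a block, 676 with the naming pattern of the files as a term, 33 and 419 within each naming pattern, and 29, 7 and 8 without day 3, 5 or 7. Leaving out 1 replicate gave 71 to 685: 685 without G6 day 2 replicate 2, 71 and 136 without G6 day 7 replicate 1 or 2, 112 and 93 without G6 day 5 replicate 1 or 2, 119 without G6 day 2 replicate 1, 136 without G6 day 3 replicate 2, and 143, 168 and 174 without Cast WT day 2 replicate 2, day 3 replicate 2 and day 5 replicate 1. Of the 30 named genes, 30 kept their call with DESeq2 and with the block, 18 with R1 and R2 separate and 3 with R2 alone. In all 19 fits that left out 1 replicate 15 kept it. Without day 3, 5 or 7 it was kept by 5 of 29, 2 of 30 and 3 of 29, and without day 2 by 23 of 30. None reversed.

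Same-numbered replicates of G6 and Cast WT correlated positively on some days and negatively on others (0.316 and -0.166 at day 7, for example), so the numbers do not pair the samples. By naming pattern of the files, pairs of the same pattern correlated at 0.0829 to 0.683 and pairs of different patterns at -0.683 to -0.0829, on each of the 4 days. With 2 G6 replicates a day the values for one mirror those for the other. Under the block, calls were 67 at days 2 and 3, 665 at days 5 and 7, 5226 between the clones, and 13 for shares at days 5 and 7 and between the clones. With the naming pattern calls were 46 at days 2 and 3, 242 at days 5 and 7 and 3 for shares at days 5 and 7, and with DESeq2 46, 478 and 2 for the change between periods. R1 and R2 as separate replicates gave 2 at days 5 and 7. Leaving out 1 replicate gave 0 to 79 at days 5 and 7, and 2271 to 4543 between the clones.

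For shares, 0 calls over days 2 to 7 became 24 with R1 alone, 9 with edgeR on allelic counts, 10 in a joint fit with D5 and 1 without day 2, and edgeR on allelic counts gave 3 at days 2 and 3 and 12 at days 5 and 7. Leaving out 1 replicate gave 0 to 2 over days 2 to 7 and for the change between periods, 0 to 1 in each period, and 0 to 10 between the clones. The median share difference was -0.0164 with R1 alone, where it passed, 0.0122 for summed counts, where it reversed, and -0.0142 to -0.0042 without 1 replicate. Smchd1 was -0.0823 without day 7 and -0.141 to -0.0705 without 1 replicate, not passing without Cast WT day 2 replicate 1, G6 day 2 replicate 2 or G6 day 3 replicate 2. The share difference of Taf1 (-0.0030) reversed with R2 alone (0.0134), the block (0.0074) and without day 3 (0.0140). It also reversed in 5 fits without 1 replicate (all such fits -0.0104 to 0.00457). The sign for Taf1 was reversed too with edgeR on allelic counts (0.0094) and the logit scale (0.0238). Those 2 values are log2 differences of the Cast to Dom ratio, not share differences. The share difference of Prkx reversed with R1 alone (-0.0016) and within one naming pattern (-0.0057). The cause of these changes was not tested.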
